A study of Mus musculus with 45 samples.

Results

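The Sprouty and Spred genes of the mouse, Spry1, Spry2, Spry3, Spry4, Spred1, Spred2 and Spred3, were followed through an experiment on activity-induced and excitotoxic gene expression. They were found by matching the gene identifiers of the count table to these 7 symbols, which gave 7 of the 54532 genes in the table, all 7 of them among the 37048 genes with at least 1 read in any library. RNA came from primary hippocampal cultures of newborn C57BL/6N mice, in which 5 culture preparations, numbered 1, 3, 6, 7 and 8, each contributed 1 library to each of 9 conditions, so that the whole series held 45 libraries. The questions were how the transcripts respond to action potential (AP) firing, what happens when firing stops, and what toxic activation of NMDA receptors adds to that.

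AP firing was induced with 50 µM bicuculline (Bic), an antagonist of the GABA type A receptor, for 0.5, 1 or 2 h, and control cultures received none of the compounds. The short protocol (SP) began with 0.5 h of Bic, after which 1 µM tetrodotoxin (TTX), a sodium channel blocker that stops AP firing, was present for another 0.5 h, alone or together with 30 µM NMDA (TTX/NMDA). The long protocol (LP) doubled these times to 1 h each and had a further arm in which 50 µM TBOA, an inhibitor of glutamate uptake, was added in place of TTX. Per the methods of the study, Bic stayed present during the intervention in all of these arms. The passive effect is the difference between TTX and uninterrupted Bic of equal total duration, the active effect that between TTX/NMDA and TTX, the total effect that between TTX/NMDA and Bic, and the spillover effect that between TBOA and 2 h Bic. All groups share the C57BL/6N strain, 1 culture method and, per the labels, treatment on day 10 or 11 in vitro. The methods of the study give day 11 for the RNA sequencing. The cultures are mixed, although a drug against dividing cells had been added early. The summed level of 6 neuron markers was 6120 to 7940 CPM (read counts scaled to library size) over the 45 libraries, against 904 to 2000 CPM for 8 astrocyte markers and 19.3 to 34.8 CPM for 7 microglia markers.

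Sprouty and Spred proteins are intracellular inhibitors of the signal that runs from receptor tyrosine kinases over Ras and Raf to the kinase ERK. Both families end in a cysteine-rich domain that brings them to membranes, and Spreds carry in addition an EVH1 domain at the start, with which Spred1 binds neurofibromin, the Ras-inactivating protein. Sprouty genes are known as transcriptional targets of the pathway that they restrain, which makes them part of a negative feedback loop. In hippocampal neurons Spry2 and Spry4 are known as brakes on axon growth, and Spred1 is the gene mutated in Legius syndrome.

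On the mouse assembly GRCm38, Spry1 (ENSMUSG00000037211) lies on the plus strand at chr3:37639947-37644598 and Spry2 (ENSMUSG00000022114) on the minus strand at chr14:105891947-105896819. Spry3 (ENSMUSG00000061654) is on a scaffold of this assembly that is not part of an assembled chromosome sequence, and the position of Spry4 is given with its values. Spred1 (ENSMUSG00000027351) is on the plus strand at chr2:117121374-117182279, Spred2 (ENSMUSG00000045671) on the plus strand at chr11:19924375-20024026 and Spred3 (ENSMUSG00000037239) on the minus strand at chr7:29158829-29170411. All 7 are protein coding. The Sproutys have 2 separate exon blocks each, the Spreds 7, 8 and 7. None overlaps an annotated gene on its own strand, and reads were counted by strand. The fewest reads that any member had in any library were 163, for Spry1 in the control of preparation 1.

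The sequence upstream of the start was read for 5 members from the RefSeq table of GRCm38.p6 promoters. Spry3 and Spry4 are not printed here. Because Spry1 and Spry2 were the members that rose most with firing, the 250 bases before their RefSeq starts are shown with those of Spred2, which did not pass the test at any Bic time point. For the 3 Spreds, the RefSeq start differs from the gene start given above, and the windows of Spred2 and Spred3 reach into or lie within the gene spans. The sequences run 5′ to 3′ on the strand of the gene, and capitals mark matches to 6 motifs bound by factors that calcium and ERK signals act on. These were the full cAMP response element TGACGTCA, its core TGACG, the AP-1 site TGANTCA, the EGR site GCGTGGGCG, the extended ETS core CCGGAA and the CArG box. Both strands were searched, and a full cAMP response element also counts as a core. The windows lie at chr3:37639697-37639946 (plus strand), chr14:105896820-105897069 (minus strand) and chr11:19924192-19924441 (plus strand).
Spry1: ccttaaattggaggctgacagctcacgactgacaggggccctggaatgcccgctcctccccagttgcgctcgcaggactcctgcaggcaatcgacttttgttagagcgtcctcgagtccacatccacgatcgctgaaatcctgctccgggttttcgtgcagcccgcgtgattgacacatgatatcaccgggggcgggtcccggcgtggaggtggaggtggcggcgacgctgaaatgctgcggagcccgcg
Spry2: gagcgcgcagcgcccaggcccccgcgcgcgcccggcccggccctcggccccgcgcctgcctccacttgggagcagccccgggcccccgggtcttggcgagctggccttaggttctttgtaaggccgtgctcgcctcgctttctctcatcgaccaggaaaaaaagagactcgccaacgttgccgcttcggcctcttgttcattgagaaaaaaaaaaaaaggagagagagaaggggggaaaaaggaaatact
Spred2: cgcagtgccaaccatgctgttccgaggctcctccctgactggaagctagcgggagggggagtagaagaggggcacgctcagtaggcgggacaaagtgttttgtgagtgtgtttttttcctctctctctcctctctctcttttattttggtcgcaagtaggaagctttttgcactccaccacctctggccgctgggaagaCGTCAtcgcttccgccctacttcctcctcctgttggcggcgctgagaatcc
In the Spry1 and Spry2 windows none of the 6 motifs was found, nor was any in those of Spred1 and Spred3, and the Spred2 window held 1 core, 47 bases before its RefSeq start and on the strand opposite to the gene. Among 32851 mouse promoter windows of the same length, 17.8% held the core element, 3952 windows the ETS core, 6.75% the AP-1 site, 1.55% the full element, 1.47% the CArG box and 0.536% the EGR site. A window without a match says only that these letters are not in these 250 bases. G and C made up 62.4% of the bases in each of the Spry1 and Spry2 windows, 70.8% in Spred1, 56.0% in Spred2 and 55.6% in Spred3.

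Per kilobase of exon, Spry2 was the most abundant member in untreated neurons, with 35.5 ± 3.00 CPM per kb (SD, n = 5), followed by Spred2 (19.5 ± 2.93), Spred1 (13.9 ± 1.54), Spred3 (10.6 ± 2.34), Spry4 (9.42 ± 1.34), Spry1 (5.04 ± 0.981) and Spry3 (4.53 ± 0.574). Spred3 and Spry4 lay within each other's spread, as did Spry1 and Spry3. The 7 transcripts together came to 98.6 ± 9.23 CPM per kb in the control and 176.4 ± 13.04 CPM per kb after 2 h Bic. Spry2 made up 36.1% ± 1.75 of this sum in the control and 56.3% ± 1.71 after 2 h Bic. The share of Spred2, the next member, was 19.7% ± 1.77 and 10.95% ± 0.361 in the same conditions. In LP TTX/NMDA the sum was 125 ± 8.52 CPM per kb, of which Spry2 made up 47.9% ± 1.24. Annotated exon length stands in for the length of the transcripts that these neurons make, which was not measured.

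**Figure D1:**
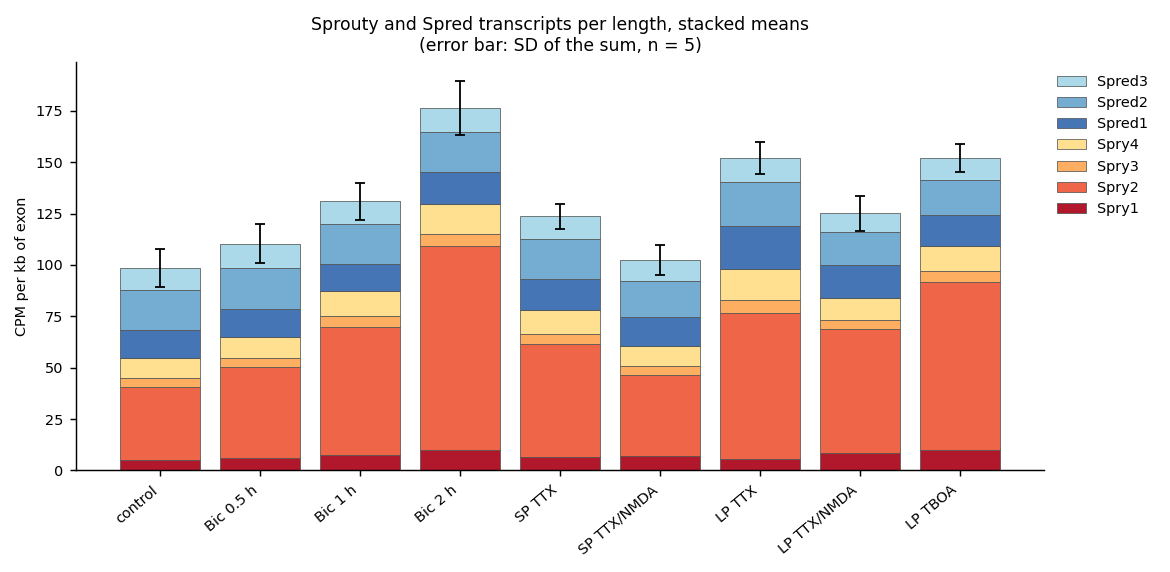
Mean level of each Sprouty and Spred transcript in the 9 conditions, in CPM per kb of exon and stacked from Spry1 at the bottom to Spred3 at the top, with the SD of the sum over 5 preparations as the error bar. The sum was 98.6 in the control, 176 after 2 h Bic and 152 in both LP TTX and LP TBOA, and the Spry2 segment is the widest in each of the 9 bars.

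AP firing raised all 4 Sproutys, Spry2 the most, and none of the 3 Spreds passed the test against the control at any time point. Spry2 had 68.2, 69.6, 76.1, 83.9 and 73.0 CPM in the control libraries of preparations 1, 3, 6, 7 and 8, and 227, 182, 222, 210 and 196 CPM after 2 h Bic. These groups lay far apart, and the level was 181% ± 32.7 (SD, n = 5) higher within preparations. The log2 fold change was 1.47 ± 0.082 (SE, adjusted p = 2.7e-16 by edgeR's quasi-likelihood test). Spry1 had 14.2, 18.4, 12.3, 16.6 and 11.7 CPM in the controls and 35.1, 31.8, 26.8, 32.1 and 18.96 CPM after 2 h Bic. These groups did not overlap either, although preparation 8 after 2 h Bic was barely above the highest control, and the log2 fold change was 0.96 ± 0.13 (adjusted p = 4.73e-07).

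Spry4 (ENSMUSG00000024427, minus strand, chr18:38586247-38601415) had 44.1, 34.3, 51.0, 47.9 and 46.8 CPM in the controls and 59.9, 53.9, 76.6, 79.2 and 74.5 CPM after 2 h Bic, again without overlap. Its log2 fold change was 0.61 ± 0.10 (adjusted p = 4.12e-05). Spry3 had 17.2, 19.7, 23.8, 18.4 and 19.4 CPM in the controls and 26.9, 23.6, 28.8, 26.3 and 23.3 CPM after 2 h Bic, so that its groups overlapped while all 5 preparations moved up. This was the smallest rise of the family, with a log2 fold change of 0.37 ± 0.093 (adjusted p = 0.00655), and it no longer passed the test without preparation 1 (adjusted p = 0.0604). Of all 30929 genes tested after 2 h Bic, 9.02% were called, 4.24% as higher. For the Spreds the log2 fold changes after 2 h were 0.17 for Spred1 (95% interval 0.01 to 0.32), -0.03 for Spred2 (-0.20 to 0.15) and 0.12 for Spred3 (-0.11 to 0.35), so that a change as large as that of Spry4 lay outside all 3 intervals.

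**Figure D2:**
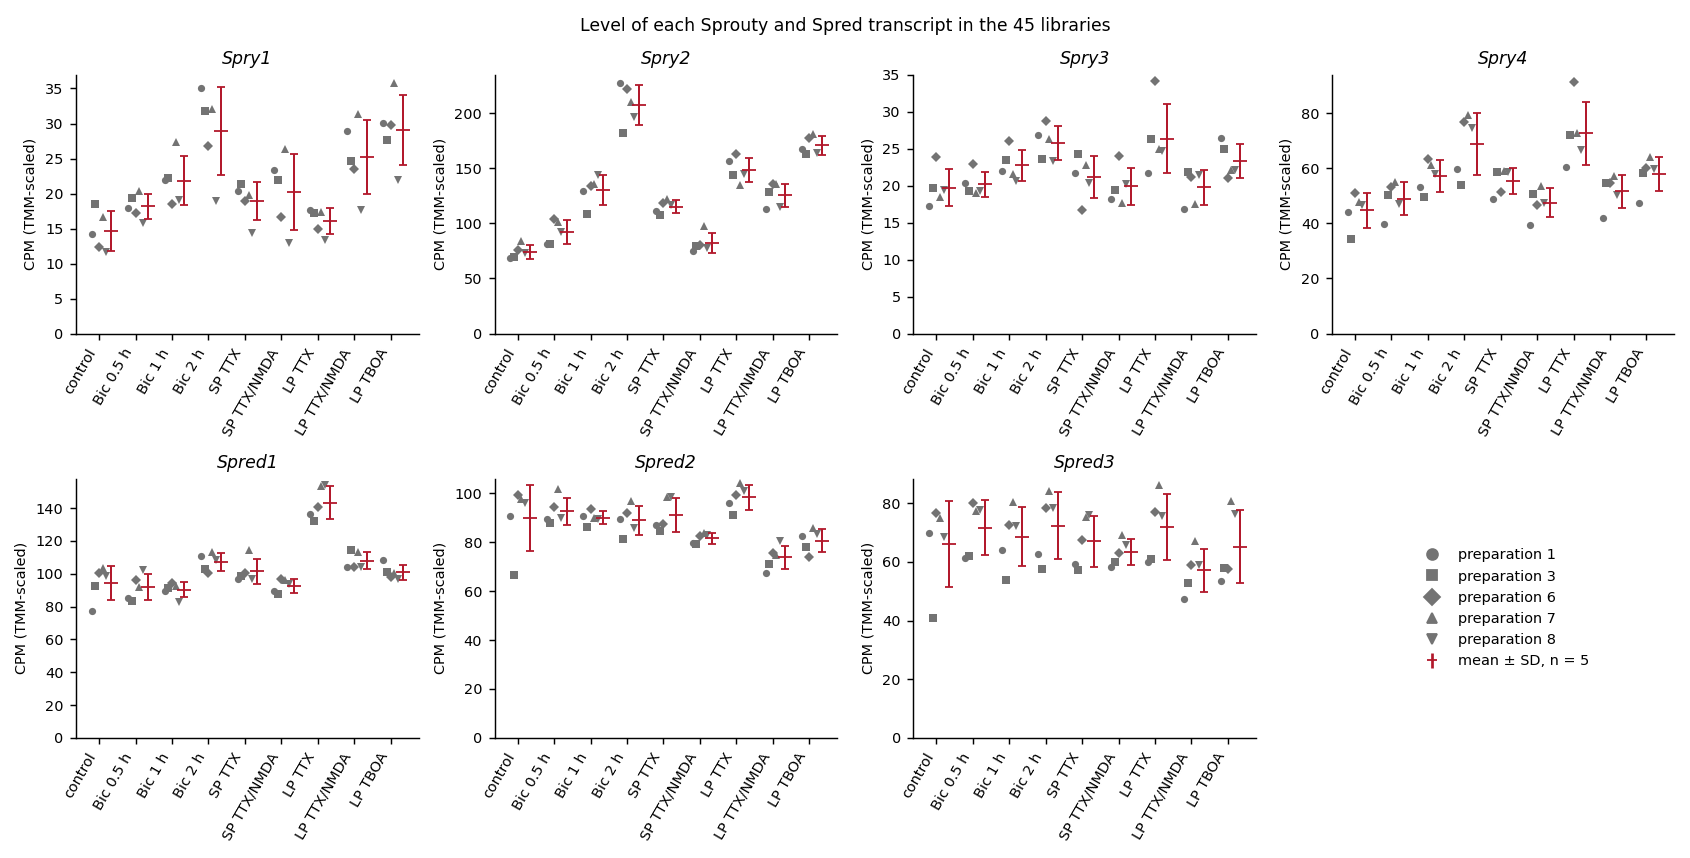
Level of each of the 7 transcripts in CPM (linear axis from 0) in the 9 conditions, with a grey symbol for the library of each preparation and the mean ± SD (n = 5) in red beside it. Spry2 climbs from 68.2 to 83.9 CPM in the control to between 182 and 227 CPM after 2 h Bic, and Spred1 is highest in LP TTX, at 132 to 154 CPM.

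The rise built up over the 2 h. After 0.5 h Bic, Spry2 had 80.9, 81.2, 104, 101 and 91.7 CPM and was higher than the control of its own preparation in all 5, with a log2 fold change of 0.31 ± 0.087. Spry1 was likewise higher in 5 of 5 preparations, with a log2 fold change of 0.30 ± 0.11. None of the 7 members was called by edgeR at this time (0.289% of all genes were), with 2 members at an unadjusted p under 0.05 and none called by DESeq2. Spry2 was called without preparation 3, whose control library stood apart from the other controls (adjusted p = 0.0474, log2 fold change 0.33). That library had a median correlation of 0.988 with the other controls, against 0.991 to 0.996 for the other 44 libraries with those of their own condition.

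After 1 h Bic, 2 members were called, Spry1 and Spry2, against 1.16% of all genes. Spry2 had 129, 108, 134, 136 and 144 CPM, all above every control (log2 fold change 0.81 ± 0.084, adjusted p = 3.07e-09). Spry1 had 21.9, 22.2, 18.5, 27.3 and 19.1 CPM, of which the lowest was only just above the highest control of 18.4 CPM (0.56 ± 0.11, adjusted p = 0.00217). Spry4 had a log2 fold change of 0.34 ± 0.092, was higher in 5 of 5 preparations and missed the threshold (adjusted p = 0.0535), but passed with the replicate block, which compares libraries of the same preparation and was fitted only over genes that passed the low-count filter (adjusted p = 0.00158, 4.07% of these filtered genes called), with RLE size factors, and without preparation 3 (adjusted p = 0.0279) or preparation 8. Between 0.5 and 1 h, Spry2 alone among the members passed the test (log2 fold change 0.50 ± 0.079, adjusted p = 6.13e-06, 0.677% of all genes called).

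Between 1 and 2 h, 3 members rose, Spry1, Spry2 and Spred1, against 5.33% of all genes. The log2 fold change was 0.67 ± 0.072 for Spry2 (adjusted p = 1.89e-08), 0.40 ± 0.11 for Spry1 (adjusted p = 0.0232) and 0.24 ± 0.063 for Spred1 (adjusted p = 0.0144). Spry1 was not called without preparation 1 (adjusted p = 0.151), with a low-count filter (adjusted p = 0.0985) or with all 45 libraries in 1 fit (adjusted p = 0.121). Spred1 was not called without preparation 1 (adjusted p = 0.0984) or preparation 7 (adjusted p = 0.0977). With the replicate block, Spry3 (adjusted p = 0.0252) and Spry4 (adjusted p = 0.000334) were also called, against 23.5% of the filtered genes in that fit. By the rule of the study, a gene is “late” upregulated when it is called after 2 h and its mean rises from 0.5 to 1 h and does not fall thereafter. All 4 Sproutys met this rule and none of the Spreds did.

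Preparations differed in their Spry1 level irrespective of treatment. Preparation 8 had the lowest Spry1 level of the 5 in 8 of the 9 conditions, and preparation 7 the highest in 5. Spry4 was lowest in preparation 1 in 6 conditions and in preparation 3 in the other 3. Preparation 8 also had the lowest levels of 5 fibroblast and meningeal markers, with a summed median of 114 CPM over its 9 libraries against 148 to 301 CPM in the other preparations. The astrocyte markers summed to a median of 1040 CPM in preparation 8 and to 1060 to 1350 CPM in the others. Its medians were also the lowest for the neuron (6940 CPM), inhibitory neuron (1360), oligodendrocyte-lineage (120), endothelial and mural (17.7) and microglia (21.5) lists. For excitatory neuron markers its median was not the lowest. The fibroblast and meningeal median was highest in preparation 3, at 301 CPM, where Spry1 was highest in 2 of the 9 conditions. The part of these cells in the Spry1 level was not tested.

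Blocking AP firing for the last 0.5 h of the SP left the members close to their levels under Bic. None of the 7 was called for the SP passive effect (0.268% of all genes were), 3 had an unadjusted p under 0.05, and DESeq2 called none. The largest differences were those of Spry1, with a log2 fold change of -0.21 (95% interval -0.41 to -0.02), Spry2, with -0.18 (-0.32 to -0.04), and Spred1, with 0.16 (0.03 to 0.30). Spry2 was lower with TTX in 5 of 5 preparations, and Spred1 was higher in 5 of 5.

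In the LP, by contrast, 3 members passed the test for the passive effect, and they moved in opposite directions. Spry1 had 17.6, 17.3, 14.97, 17.3 and 13.3 CPM in LP TTX, below each of the 2 h Bic libraries (log2 fold change -0.85 ± 0.11, adjusted p = 3.56e-06). Its mean of 16.1 CPM lay 9.99% of the way from the control mean to that of 2 h Bic, and its difference from the control was 0.12 on the log2 scale (95% interval -0.10 to 0.34). Compared with the level at which TTX was added, that of 1 h Bic, it was also lower (-0.44 ± 0.098, adjusted p = 0.00206). The last comparison missed the threshold when all 45 libraries were fitted together (adjusted p = 0.062).

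Spry2 had 156, 144, 163, 135 and 145 CPM in LP TTX, again below every 2 h Bic library (log2 fold change -0.49 ± 0.067, adjusted p = 8.22e-06). Unlike Spry1 it remained well above the control (0.99 ± 0.080, adjusted p = 4.57e-12), with 55.8% of the rise to 2 h Bic. It was not below the level at 1 h Bic, with a difference of 0.18 (95% interval 0.04 to 0.32) that passed with the replicate block (adjusted p = 0.0349) but not without (adjusted p = 0.139). Spred1 rose when firing was blocked. It had 111, 103, 100, 113 and 108 CPM after 2 h Bic and 137, 132, 141, 154 and 154 CPM in LP TTX, without overlap (log2 fold change 0.41 ± 0.063, adjusted p = 3.69e-05). The LP TTX libraries were also the highest of all conditions for this gene, at 0.59 ± 0.082 above the control (adjusted p = 1.77e-06) and 0.66 ± 0.066 above 1 h Bic (adjusted p = 9.43e-10). Of all genes, 4.65% were called for the LP passive effect, 6.75% for LP TTX against control and 7.19% for LP TTX against 1 h Bic.

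Spry3 and Spry4 stayed above their control levels under TTX. Spry4 had 60.6, 72.2, 91.2, 72.6 and 66.5 CPM in LP TTX, which overlapped with 2 h Bic (log2 fold change 0.06, 95% interval -0.12 to 0.25). Against the control it was 0.68 ± 0.098 higher (adjusted p = 3.37e-06), and against 1 h Bic 0.34 ± 0.082 (adjusted p = 0.00523). Spry3 differed from 2 h Bic by 0.02 (-0.16 to 0.20) and was 0.40 ± 0.10 above the control (adjusted p = 0.00998). Spred2 was higher in LP TTX than in 2 h Bic in 5 of 5 preparations and passed only with the replicate block (log2 fold change 0.13, adjusted p = 0.302 without and 0.0213 with the block, where 15.7% of the filtered genes were called as higher), while Spred3 had a difference of -0.02 (-0.20 to 0.17).

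Whether the passive effect differed between the protocols was tested with an interaction contrast. None of the 7 members was called (0.256% of all genes were), although 3 had an unadjusted p under 0.05, and DESeq2 called none. For Spry1 the LP effect was 0.64 ± 0.16 lower on the log2 scale than the SP effect, with an adjusted p of 0.0895 that became 0.00129 with the replicate block. For Spry2 the difference was -0.31 ± 0.10, with an adjusted p of 0.381 without and 0.0383 with the block, in which 2.01% of the filtered genes were called. The interval for Spred1 ran from 0.07 to 0.43.

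**Figure D3:**
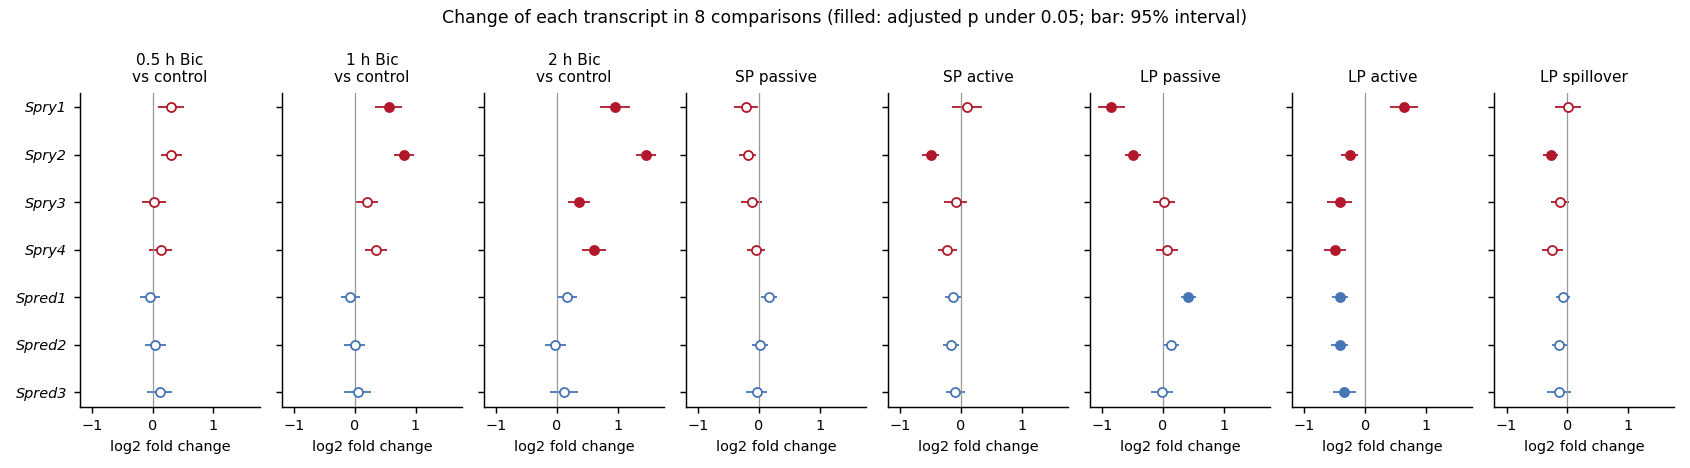
Log2 fold change of each member in 8 comparisons, with Sproutys in red, Spreds in blue, filled symbols for an adjusted p under 0.05 and bars for the 95% interval. All 4 Sproutys are filled after 2 h Bic, and in the LP active panel Spry1 stands at 0.64 while the other 6 members lie between -0.50 and -0.25.

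In the SP, the active effect was a fall of Spry2. Its level was 112, 107, 118, 122 and 117 CPM in SP TTX and 74.5, 79.7, 79.9, 97.7 and 77.8 CPM in SP TTX/NMDA, so that even the highest of the latter, from preparation 7, lay below all SP TTX libraries. The log2 fold change was -0.50 ± 0.072 (adjusted p = 1.21e-05), and the level fell by 28.9% ± 5.95 (SD, n = 5) within preparations. SP TTX/NMDA differed from the control by 0.13 (95% interval -0.03 to 0.30) for Spry2, whereas SP TTX was 0.63 ± 0.081 above it (adjusted p = 4.05e-07). On the level scale, the mean of SP TTX held 73.1% of the rise to 1 h Bic and that of SP TTX/NMDA 13.9%. Spry2 was the only member called of the 7, against 4.28% of all genes. Spry4 was lower with NMDA in 5 of 5 preparations and was called with the replicate block (log2 fold change -0.22 ± 0.078, adjusted p = 0.114 without and 0.0168 with the block, against 16.2% of the filtered genes). For Spry1 the difference was 0.09 (-0.15 to 0.34). Cell type markers moved in this comparison too. The sum of 4 excitatory neuron markers went from 2210 to 2820 CPM in SP TTX to 1470 to 1950 CPM in SP TTX/NMDA. Median sums went from 1340 to 1710 CPM for inhibitory neurons, 212 to 269 for fibroblasts and meningeal cells and 1180 to 1120 for astrocytes. The part of these shifts in the fall of Spry2 was not tested.

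The SP total effect was likewise called for Spry2 (-0.67 ± 0.078, adjusted p = 1.03e-07) and no other member, against 4.30% of all genes. Spry4 just missed the threshold (-0.27 ± 0.081, adjusted p = 0.0503). With the replicate block, Spry3 (adjusted p = 0.0145), Spry4 (adjusted p = 0.00459) and Spred2 (adjusted p = 0.0128) were also lower, against 27.3% of the filtered genes called. Against the control, Spry2 alone was called in SP TTX (0.618% of all genes) and no member in SP TTX/NMDA (1.27% of all genes), where DESeq2 also called none and 1 member, Spry1, had an unadjusted p under 0.05. Spry1 passed against the control with the block in both arms, at adjusted p = 0.0453 in SP TTX (1.42% of the filtered genes called) and 0.0121 in SP TTX/NMDA (11.1% of them).

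In the LP, bath-applied NMDA changed all 7 members, Spry1 upwards and the other 6 downwards. This count stands against a broad response, since 23.3% of all genes tested and 46.9% of the 13592 genes with a mean of at least 1 CPM were called, 11.6% of the former as higher and 11.8% as lower. Spry1 had 28.9, 24.6, 23.5, 31.4 and 17.6 CPM in LP TTX/NMDA, and was higher than in LP TTX in 5 of 5 preparations (log2 fold change 0.64 ± 0.12, adjusted p = 8.84e-05). The lowest of these libraries, from preparation 8, was at the level of the highest LP TTX library, which was from preparation 1, and both were at 17.6 CPM to 3 digits. The mean of LP TTX/NMDA held 73.9% of the rise of Spry1 to 2 h Bic.

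Of the members that fell, Spry4 and Spry3 returned to near their control levels. Spry4 had 41.9, 54.5, 54.6, 57.1 and 50.1 CPM in LP TTX/NMDA, below all LP TTX libraries (log2 fold change -0.50 ± 0.091, adjusted p = 9.62e-05), and differed from the control by 0.19 (95% interval 0.00 to 0.39, adjusted p = 0.187). Spry3 had 16.8, 21.9, 21.2, 17.5 and 21.5 CPM, a fall in 5 of 5 preparations (-0.42 ± 0.10, adjusted p = 0.0022), and differed from the control by -0.01 (-0.21 to 0.20). Spry2 had the smallest of the 6 decreases, from the LP TTX values above to 113, 128, 135, 135 and 115 CPM. Its log2 fold change was -0.25 ± 0.071 (adjusted p = 0.00881), the library of preparation 7 did not move, and the call was lost without preparation 1 (adjusted p = 0.0633). It was still 0.75 ± 0.087 above the control (adjusted p = 2.34e-08), and its mean held 38.4% of the rise to 2 h Bic.

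The Spreds fell together. Spred1 came down from its high level under TTX to 104, 114, 104, 113 and 104 CPM, below all LP TTX libraries (log2 fold change -0.42 ± 0.067, adjusted p = 1.89e-05). Spred2 had 96.0, 91.1, 99.3, 104 and 101 CPM in LP TTX and 67.6, 71.2, 75.5, 74.7 and 80.4 CPM in LP TTX/NMDA, also without overlap (-0.42 ± 0.068, adjusted p = 1.92e-05). With all 5 preparations, Spred2 in LP TTX/NMDA was the only member called as lower than its control in any of the 8 other conditions (-0.29 ± 0.094, adjusted p = 0.0219). This call was lost without preparation 1, 6 or 7 (adjusted p = 0.0877, 0.0815 and 0.0713). Without preparation 3, whose control library stood apart, Spred3 was called as lower as well. Spred3 had 60.1, 61.0, 77.0, 86.1 and 75.8 CPM in LP TTX and 47.3, 52.9, 59.0, 67.2 and 59.0 CPM in LP TTX/NMDA, which overlapped between preparations but were lower in 5 of 5 (-0.35 ± 0.096, adjusted p = 0.00723). Of all genes, 19.5% were called for LP TTX/NMDA against control, where Spry1 was also higher (0.77 ± 0.13, adjusted p = 1.39e-05) and Spred1 passed with the replicate block (0.18, adjusted p = 0.141 without and 0.0222 with the block, 47.2% of the filtered genes called) and in the fit of all 45 libraries.

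**Figure D4:**
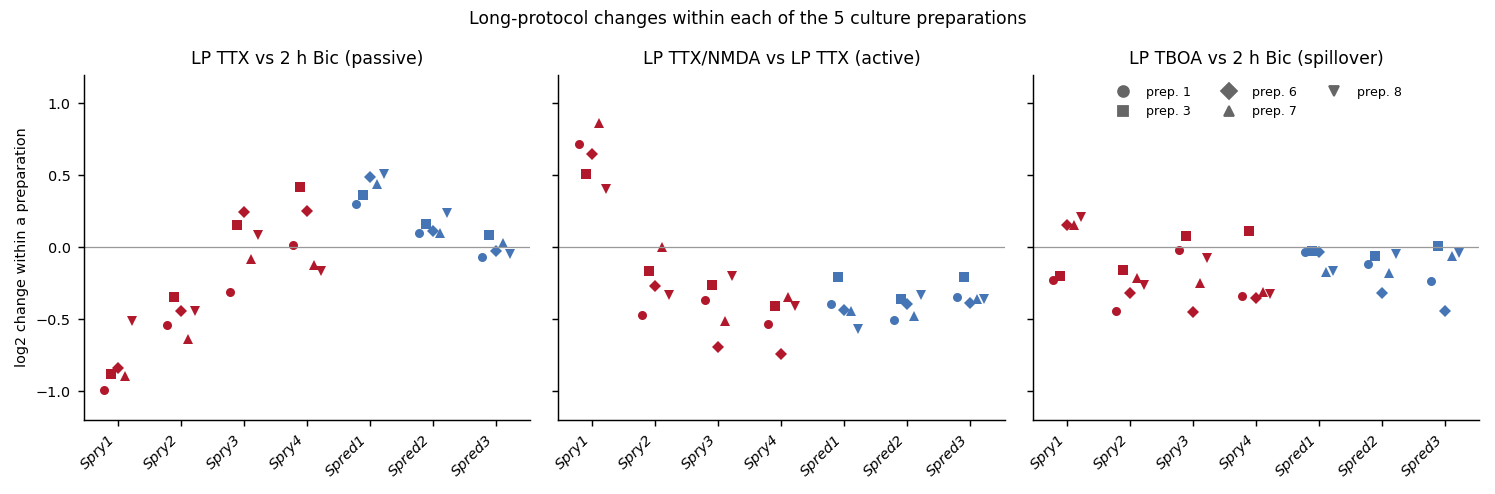
Log2 change of each member within each of the 5 culture preparations (1 symbol each) for the 3 long-protocol effects, Sproutys in red and Spreds in blue. Spry1 lies below 0 in all 5 preparations in the passive panel, from -0.99 to -0.51, and above 0 in all 5 in the active panel, from 0.41 to 0.86, while Spred1 does the opposite.

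Cell type markers moved in the LP active comparison too. The 4 excitatory neuron markers all fell, from a sum of 2210 to 2710 CPM in LP TTX to 1050 to 1520 CPM in LP TTX/NMDA. The sum of the 6 neuron markers fell less, from 7420 to 7940 CPM to 6120 to 6640 CPM. That of the 3 inhibitory neuron markers went the other way, with a median of 1730 CPM in LP TTX and 2010 CPM in LP TTX/NMDA. Of the 8 astrocyte markers 7 were higher and 1 lower, and their sum went from 991 to 1470 CPM to 1170 to 2000 CPM. All 5 fibroblast and meningeal markers were higher, with a median sum of 219 CPM in LP TTX and 427 CPM in LP TTX/NMDA, as were 5 of 9 oligodendrocyte-lineage markers (157 and 251 CPM), 3 of 7 endothelial and mural markers (20.8 and 31.8 CPM) and 2 of 7 microglia markers (21.9 and 30.9 CPM). None of the markers was at 0 in every library, but the defining microglia gene P2ry12 reached at most 0.357 CPM and the endothelial gene Cldn5 at most 0.0894 CPM. Fewer cells of a type and less RNA per cell cannot be told apart in bulk RNA, and the part of these shifts in the rise of Spry1 and the fall of the other 6 members was not tested.

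The total effect in the LP was negative for 5 members, Spry2, Spry3, Spry4, Spred2 and Spred3, against 22.8% of all genes called. Spry2 was lowered most (log2 fold change -0.74 ± 0.075, adjusted p = 1.61e-09), in 5 of 5 preparations and without overlap. The others ranged from -0.43 for Spry4 (adjusted p = 0.000491) to -0.29 for Spred2 (adjusted p = 0.00247). Spred1 was at -0.00 (95% interval -0.13 to 0.13), with a passive effect of 0.41 and an active effect of -0.42. Spry1 was lower in 5 of 5 preparations and passed with the replicate block or without preparation 8 (-0.21 ± 0.13, adjusted p = 0.262 without and 0.0253 with the block, where 56.6% of the filtered genes were called, a share not comparable with that of all genes).

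Set against 1 h Bic, the time at which the intervention began, LP TTX/NMDA had lower Spred2 (-0.30 ± 0.071, adjusted p = 0.00155) and Spred3 (-0.28 ± 0.092, adjusted p = 0.0241) and higher Spred1 (0.25 ± 0.070, adjusted p = 0.00728), with 21.1% of all genes called. The Spred3 call did not hold with a low-count filter (adjusted p = 0.0764), in DESeq2 (adjusted p = 0.0722), with all 45 libraries in 1 fit (adjusted p = 0.124) or without preparation 1 (adjusted p = 0.0736). With the replicate block, Spry1 was also called as higher (adjusted p = 0.0324) and Spry3 as lower (adjusted p = 0.038), against 52.3% of the filtered genes. In the same kind of comparison for LP TTX, the block added Spry3 (0.20, adjusted p = 0.264 without and 0.0279 with the block) and Spry2, against 29.1% of the filtered genes.

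The difference between the active effects of the protocols was not called for any of the 7 members (2.57% of all genes were), with 6 of them at an unadjusted p under 0.05, and DESeq2 called 1, Spred1. It was largest for Spry1, whose LP effect was 0.56 ± 0.20 above its SP effect (adjusted p = 0.136). With the replicate block, 4 members were called, Spry1 (adjusted p = 0.000858), Spred1 (-0.28, adjusted p = 0.00314), Spred2 (-0.25, adjusted p = 0.00334) and Spred3 (-0.25, adjusted p = 0.0123), against 9.85% of the filtered genes called as higher and 15.1% as lower.

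With all 5 preparations, glutamate spillover lowered Spry2, and no other member passed the test. Spry2 had 167, 163, 178, 181 and 163 CPM in LP TBOA, below every 2 h Bic library, with a log2 fold change of -0.27 ± 0.064 (adjusted p = 0.0303) against 0.602% of all genes called. The call was lost with a low-count filter (adjusted p = 0.0859), with all 45 libraries in 1 fit (adjusted p = 0.102), without preparation 1 (adjusted p = 0.258) and without preparation 6 (adjusted p = 0.0847), while the direction was the same in 5 of 5 preparations. Spry1, called as lower in LP TTX than in 2 h Bic and as higher in LP TTX/NMDA than in LP TTX, was not called for spillover. It had 30.0, 27.7, 29.8, 35.8 and 21.99 CPM in LP TBOA, within 0.02 of 2 h Bic on the log2 scale (95% interval -0.20 to 0.23). Spry4 was lower in 4 of 5 preparations (-0.25 ± 0.087, adjusted p = 0.362) and was called as lower without preparation 3. All 3 Spreds had negative differences, of -0.07, -0.13 and -0.14, that did not pass. Against the control, Spry1 (0.98 ± 0.11, adjusted p = 2.01e-08), Spry2 (1.196 ± 0.078, adjusted p = 2.64e-15) and Spry4 (0.36 ± 0.092, adjusted p = 0.00837) were higher in LP TBOA, where 6.90% of all genes were called. The passive, total and spillover effects share the 2 h Bic libraries, and all comparisons with the control share the control libraries.

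The other genes of the pathway were taken from 6 lists and are given here by their counts in the same fits. Of all genes tested 9.02% were called after 2 h Bic, and of those with a mean of at least 1 CPM 18.6%. Among the lists, 9 of 29 ERK phosphatases and other feedback inhibitors were higher and 2 lower, with a median log2 fold change of 0.14 against -0.0061 for all genes tested. Dusp1, a phosphatase of MAP kinases, went from a mean of 17.95 to 175 CPM (3.26 ± 0.10) and Errfi1, which inhibits the EGF receptor family, from 34.9 to 227 CPM (2.69 ± 0.079). Dusp7 (-0.77 ± 0.085) and the Ras GTPase-activating gene Rasa1 (-0.24 ± 0.076) fell. Of 16 genes used as readouts of ERK output, 11 were higher and 1 was lower (median 0.95), led by the transcription factors Fos (5.39 ± 0.13) and Egr2 (4.20 ± 0.15), and Etv1 was the one that fell (-0.28 ± 0.085). This list shares Dusp4 and Dusp6 with the first. On the log2 scale, the 1.47 of Spry2 lay between the list median and the values of Dusp1 and Errfi1.

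In the cascade itself, 2 of 26 Ras-ERK core genes were higher after 2 h Bic, the ERK-responsive transcription factors Srf (0.83 ± 0.083) and Elk4 (0.46 ± 0.092), and 2 lower, Rap1a (-0.35 ± 0.087) and Nras (-0.24 ± 0.077). Among 18 binding partners and modifiers of Sprouty and Spred proteins, 3 were higher and 1 lower. These included Siah2, a ubiquitin ligase that targets Spry2, at 1.58 ± 0.082, and the kinase Mknk2 at 1.32 ± 0.083, whereas Siah1a, a ligase of the same family, fell by 0.55 ± 0.089. Of 28 receptor tyrosine kinases and adaptors, 3 were higher and none lower, among them the FGF receptors Fgfr2 (1.25 ± 0.098) and Fgfr1 (0.33 ± 0.083). Of 27 genes on a list of growth factor ligands and further FGF family members (the ligand list), 8 were higher and 1 lower. Bdnf (1.497 ± 0.10) and Fgf9 (0.96 ± 0.10) rose most, and Fgf18 fell (-0.78 ± 0.16).

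For the LP passive effect, 4.65% of all genes tested and 10.4% of those with a mean of at least 1 CPM were called. Of the 16 ERK readouts, 8 were lower and 2 higher (median -0.39, against 0.012 for all genes tested). Dusp6, the cytoplasmic phosphatase of ERK, fell from 201 to 70.0 CPM (-1.53 ± 0.13) and Egr1 from 1433 to 809 CPM (-0.83 ± 0.10), while Etv1 (0.27 ± 0.076) and Epha4 (0.22 ± 0.066) rose. Among the 29 feedback inhibitors, 6 were lower and 4 higher, with Dusp1 the most reduced (-2.23 ± 0.12) and Socs1 (1.28 ± 0.19) and Dusp16 (0.41 ± 0.082) the most raised. The values of Spry1 (-0.85) and Spred1 (0.41) lay within the range of this list. In the core cascade, Rras2 (0.32 ± 0.078) and Rap1b (0.32 ± 0.063) were among 4 genes that rose, and Map2k2 (-0.22 ± 0.061) fell. Of the binding partners, Siah2 (-0.52 ± 0.073) and Mknk2 (-0.36 ± 0.067) fell and Siah1a rose (0.26 ± 0.075). Only the adaptor Shc2 among receptors and adaptors was called (-0.23 ± 0.059). On the ligand list, Fgf12, an FGF family member that is not a receptor ligand, rose (0.21 ± 0.060) and Nrg2 fell (-0.71 ± 0.14).

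For the LP active effect, 20% of the genes with a mean of at least 1 CPM were called as higher and 26.9% as lower, and the counts of these lists stand beside those shares. The feedback inhibitors were called in both directions, 6 higher and 11 lower (median -0.14, against 0.11 for all genes tested and -0.011 for those with a mean of at least 1 CPM). Dusp1 (2.21 ± 0.11) and Dusp6 (from 70.0 to 161 CPM) rose, as Spry1 did, and Lrig2 (-1.29 ± 0.072) and Socs1 (-1.24 ± 0.17) fell. The ERK readouts were divided, with 6 higher and 6 lower, Ier3 rising by 1.17 ± 0.18 and Epha4 (-1.41 ± 0.078) and Fosl1 (-0.86 ± 0.16) falling most. Of the 26 core genes, 14 were lower and 4 higher (median -0.29), with Rras2 (-0.81 ± 0.095) and Braf (-0.73 ± 0.086) falling and Elk3 (0.89 ± 0.16) and Rras (0.76 ± 0.16) rising. The binding partners showed 9 lower and 2 higher, with the kinase gene Dyrk1a (-0.58 ± 0.064) among those that fell and Cav1 (0.59 ± 0.15) and Csk (0.39 ± 0.073) as those that rose.

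Among receptors and adaptors, 9 were higher and 6 lower for the LP active effect. Pdgfra (0.86 ± 0.23), which is also one of the oligodendrocyte-lineage markers, and Fgfr3 (0.81 ± 0.17) rose, while Ntrk3 (-0.68 ± 0.080) and Shc3 (-0.65 ± 0.078) fell. The ligand list had 8 genes in each direction, with Nrg2 (0.85 ± 0.15) and Fgf1 (0.79 ± 0.14) higher and Bdnf (-1.32 ± 0.088) and Pdgfb (-1.13 ± 0.072) lower. For glutamate spillover, 0.602% of all genes tested and 1.37% of those with a mean of at least 1 CPM were called. It lowered 3 feedback inhibitors or phosphatases, of which Lrig2 (-0.37 ± 0.066) and Dusp4 (-0.35 ± 0.073) most. Also lower were Fgfr1 (-0.26 ± 0.063) and 3 genes of the ligand list, including Pdgfb (-0.41 ± 0.066) and Bdnf (-0.29 ± 0.067), and none on these lists was raised. No core gene and no binding partner was called by edgeR for spillover.

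The genes whose levels ran most like those of each Sprouty were sought among 13585 other genes, by Pearson's r of log2(CPM + 1) over the 45 libraries after centring within preparations. For Spry2 they were Sgk1 (r = 0.982), a serum- and glucocorticoid-regulated kinase, Midn (r = 0.981) and Erf (r = 0.98), an ETS-family repressor that ERK phosphorylates. Erf had mean levels of 52.3 CPM in the control, 187 in 2 h Bic, 137 in LP TTX and 88.0 in LP TTX/NMDA. Spry1 ran with Nfkbiz (r = 0.864), Klf4 (r = 0.86) and Sox9 (r = 0.859). Of these, Sox9, which is on the astrocyte marker list, had 15.4 CPM in the control, 68.5 in 2 h Bic, 27.7 in LP TTX and 72.6 in LP TTX/NMDA. Spry4 was closest to Cry2 (r = 0.888), a repressor of the circadian clock, Stc2 (r = 0.882) and the RNA demethylase gene Alkbh5 (r = 0.879), and Spry3 to the amino acid transporter gene Slc38a2 (r = 0.875), Leprotl1 (r = 0.873) and Sc5d (r = 0.861). Between members, r was 0.79 for Spry2 and Spry4, 0.77 for Spred2 and Spred3, 0.742 for Spry3 and Spry4 and -0.552 for Spry1 and Spred2. The points share treatments, preparations and library scaling, so these values describe the libraries only.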

How the data were processed

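RNA sequencing libraries from 45 cultures (9 conditions, 5 preparations) were analysed from the raw read counts per gene that the authors deposited. Per the labels and the methods of the study, polyadenylated RNA was made into stranded libraries, single-end reads were aligned to GRCm38 with STAR and reads were counted per gene by strand with featureCounts, leaving out reads that map to several places or genes. Reads shared with near-identical sequences are therefore missing from the counts. Libraries held 11316580 to 81129276 counted reads (median 26239614).

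Levels are CPM with library sizes scaled by TMM in edgeR 4.0.16 (R 4.3.3). Each comparison was fitted on its own groups with edgeR's quasi-likelihood test over all genes with at least 1 read, without a block, and p-values were adjusted over all genes by the Benjamini-Hochberg method, with calls at an adjusted p under 0.05. Interactions were fitted on the 20 libraries they involve. Alternatives were a low-count filter (filterByExpr), RLE size factors, DESeq2 1.42.0, the replicate block together with that filter, all 45 libraries in 1 fit, and leaving out each preparation. The labels name the number as a culture preparation, so that it pairs libraries. Deviations from the condition means correlated with r = 0.45 on average between libraries of the same number and -0.11 between others. P-values measure the spread between these preparations. No libraries were identical. The fit was tested on simulated data. Coordinates and exon lengths came from an Ensembl release of GRCm38 later than that of the study, and promoters from RefSeq (GRCm38.p6), where 5 of 7 members were found.

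The members, the pathway lists and the marker lists were chosen with earlier results of these data known. Named pathway genes are at most 2 per list and direction among those called, ranked by log2 fold change among genes with a mean of at least 1 CPM. A gene that this rule would name is not reported here. The neighbours of each Sprouty are the 3 genes of highest r.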

Additional observations from a re-analysis of the deposited data

Results flagged for a closer look

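In 4 of the 63 groups of 5 libraries (7 members in 9 conditions) a single library lay far from the others by Dixon's test, which chance gives in about 1 of 20 such groups. Spry2 in SP TTX/NMDA was at 97.7 CPM in preparation 7 and at 74.5 to 79.9 CPM in the other preparations. Spred1 in SP TTX was at 115 CPM in preparation 7, against 96.7 to 100.3 CPM elsewhere. In the control, preparation 3 had 66.6 CPM of Spred2, against 90.6 to 99.5 CPM, and 40.8 CPM of Spred3, against 68.5 to 76.6 CPM. This was the control library that stood apart from the rest over all genes.

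With the replicate block and a low-count filter, some effects differed between the long and the short protocol. The passive effect of the LP was below that of the SP for Spry1 (log2 difference -0.65, adjusted p = 0.00129) and Spry2 (-0.31, adjusted p = 0.0383). The active effect of the LP was above that of the SP for Spry1 (0.56, adjusted p = 0.000858) and below it for Spred1 (-0.28, adjusted p = 0.00314), Spred2 (-0.25, adjusted p = 0.00334) and Spred3 (-0.25, adjusted p = 0.0123). The unblocked and unfiltered edgeR fit of the report called none of these 6 differences. The low-count filter alone, and DESeq2, called that of Spred1, and leaving out preparation 8 called both of Spry1.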

How the results depend on the processing

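The 45 called member values kept direction and call in 431 of 450 alternative values, lost the call in 19 and reversed in 0. Of 1020 alternative values of the 102 uncalled ones, 49 became called and 53 changed sign. None of 378 alternative levels moved by more than 1 SD. With the replicate block over genes that passed the low-count filter, 2 choices changed together, the number of members called became 5 for 2 h against 1 h Bic, 2 for SP active, 4 for SP total, 2 for SP TTX and 1 for SP TTX/NMDA against control, 5 each for the LP arms TTX and TTX/NMDA against 1 h Bic, 2 for the difference of the passive and 4 for that of the active effects. It was 2 (RLE) and 3 (DESeq2) for SP total, 0 for spillover with the low-count filter and with all 45 libraries, and 1 for the difference of the active effects with the filter and with DESeq2. Leaving out 1 preparation gave counts of 0 to 1 for 0.5 h Bic, 1 to 4 for 2 h against 1 h Bic, 1 to 2 for SP total, 0 to 2 for spillover, 1 to 2 for SP TTX and 0 to 1 for SP TTX/NMDA against control, 2 to 5 for LP TTX/NMDA against 1 h Bic, and 0 to 1 for each difference between protocols. The share of all genes called changed with the fit as well. For 2 h against 1 h Bic it was 5.33% without the block and 23.5% of the filtered genes with it. These counts therefore describe the fits and not the members alone.

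Sign changes occurred in uncalled log2 fold changes near 0, and their cause was not tested. Spred2 at 1 h Bic was 0.000145 with the filter, 0.00067 with RLE, 0.00074 in DESeq2, 0.012 with the replicate block and 0.000016 with all 45 libraries. Spred1 for LP total was 0.026 with the filter, 0.026 with the block and 0.013 with all libraries. Spry3 against control was 0.0071 in SP TTX/NMDA with all libraries, and in LP TTX/NMDA 0.0053 with the filter and 0.015 with the block. Without 1 preparation, the ranges were -0.013 to 0.055 for Spry3 and -0.027 to 0.073 for Spred2 at 0.5 h Bic, -0.085 to 0.028 for Spred2 and -0.012 to 0.089 for Spred3 at 1 h, -0.086 to 0.017 for Spred2 at 2 h, and -0.065 to 0.041 for Spred1 from 0.5 to 1 h. For SP passive they were -0.16 to 0.028 (Spry3), -0.12 to 0.030 (Spry4) and -0.016 to 0.056 (Spred2), for SP active -0.015 to 0.15 (Spry1), and for LP passive -0.040 to 0.099 (Spry3), -0.0012 to 0.13 (Spry4) and -0.024 to 0.0036 (Spred3). For LP total the range was -0.012 to 0.047 (Spred1) and for spillover -0.035 to 0.080 (Spry1). Against control they were -0.046 to 0.075 (Spred2) and -0.059 to 0.085 (Spred3) in SP TTX, -0.026 to 0.019 (Spry3) and -0.023 to 0.12 (Spry4) in SP TTX/NMDA, -0.056 to 0.050 (Spry3) in LP TTX/NMDA, and -0.11 to 0.082 (Spred3) in LP TBOA. For Spry2 in LP TTX/NMDA against 1 h Bic it was -0.13 to 0.0015. The difference of the passive effects ranged from -0.068 to 0.23 (Spry3), -0.015 to 0.20 (Spry4) and -0.030 to 0.069 (Spred3).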
